A study of Mus musculus with 16 samples.

Results

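Neuropeptides are short signalling peptides cut from larger precursor proteins in the secretory granules of neurons and endocrine cells. They act through G protein-coupled receptors and are removed by peptidases outside and inside cells. The 7 precursor genes described here are Avp, Trh, Gnrh1, Sst, Nts, Gal and Npb, whose best known brain sources lie outside the pituitary gland. Avp encodes vasopressin of the hypothalamic magnocellular neurons and of the circadian pacemaker. Trh encodes thyrotropin-releasing hormone and Gnrh1 encodes gonadotropin-releasing hormone, the hypothalamic peptides that drive the thyroid and gonadal axes. Sst encodes somatostatin, which marks a class of cortical, hippocampal and striatal interneurons and, from the hypothalamus, inhibits growth hormone release. Nts encodes neurotensin, a modulator of dopamine signalling, Gal encodes galanin, and Npb encodes neuropeptide B.

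The members were taken by gene symbol, with no measured value in the rule. They had 8 probes (2 for Trh and 1 for each other gene) among 20794 probes, of which 12760 carried a name, for 9026 genes. Expression was measured in homogenised brain and liver of 4 male C57BL/6J mice of genotype HdhQ111/+, 18 weeks old. HdhQ111 is a knock-in allele with a lengthened CAG repeat in the endogenous mouse huntingtin gene, so it is carried by every cell and not driven by a transgene. The controls were wildtype C57BL/6J males of the same age, and RNA of 4 of them was pooled for each tissue. Every mutant sample was hybridised against the pool of its tissue on 2 two-channel cDNA arrays with the Cy3 and Cy5 dyes swapped, which made 8 arrays per tissue and 16 in all.

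Values are log2 ratios, likely HdhQ111 over wildtype. The labels list the mutant sample as channel 1 on every array, but no source states the sign, so "higher" and "lower" below rest on that reading. Each mouse is given by the mean of its 2 swapped arrays, with the SD over mice as the error. A gene is named through a shift of 11 rows between the platform's symbols and the value rows, which no source states. Probe pairs of the same gene correlated better at that shift (mean r 0.102 over 2960 pairs) than with the names as given (0.042) or at any other of the 121 shifts tried (at most 0.061). Ratios hold no expression level, so tissue identity could be read only from the spread over mice: the SDs of neuron marker probes had a median percentile of 30.8 among all probes in brain and 62.7 in liver, and those of hepatocyte marker probes 73.9 in brain and 43.3 in liver. In tissue RNA, fewer cells of a type and less RNA per cell cannot be told apart. No named probe of the huntingtin gene was analysed here, so the genotype was not checked.

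RefSeq promoter windows (build GRCm38.p6) were at hand for 5 of the 7 genes, Avp, Trh, Nts, Sst and Gal. The pair below is shown because its members carry the letters of textbook regulatory elements: the E-box CACGTG, bound by clock factors, in Avp, and the cAMP response element TGACGTCA, bound by CREB, in Sst. Each run holds the 150 bases before the annotated start, 5′ to 3′ on the gene's strand, with the motif in capitals. Avp lies on the minus strand at chr2:130582589-130582738 and Sst on the minus strand at chr16:23890845-23890994.
Avp: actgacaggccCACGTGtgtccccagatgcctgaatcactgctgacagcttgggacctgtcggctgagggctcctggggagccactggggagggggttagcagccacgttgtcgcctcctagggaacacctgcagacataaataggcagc
Sst: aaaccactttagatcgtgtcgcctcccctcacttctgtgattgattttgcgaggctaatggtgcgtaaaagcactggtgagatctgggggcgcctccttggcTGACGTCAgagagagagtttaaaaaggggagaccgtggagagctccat
Both motifs read the same on either strand and do not overlap. In the 250 bases before the start, CACGTG was found in 6.02% and TGACGTCA in 1.55% of all 32851 windows. Among the 5 members with a window, Avp alone held CACGTG and Sst alone held TGACGTCA. Searched on both strands too were TGACG, the start of TGACGTCA and so present wherever that is, which Trh, Sst and Nts held (17.8% of windows), and TATAAA, which none of the 5 held (12.4%). A match is a description of the letters only.

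In brain, none of the 7 genes differed from the wildtype pool beyond the spread between mice. The means of the 8 probes lay between -0.17 (Gal) and 0.21 (the second Trh probe), with 5 above and 3 below 0 (55.2% of all probes were above 0). With limma, 0 of 8 member probes passed at an adjusted p under 0.05, as for all probes (0.00% of 19325), and 0 of 8 had an unadjusted p under 0.05 (3.50% of all probes). Their adjusted p was 0.998 throughout. The median of the member probes was 0.062 and that of all probes 0.022. The median size of a member's mean was 0.107, against 0.125 over all probes.

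**Figure D1:**
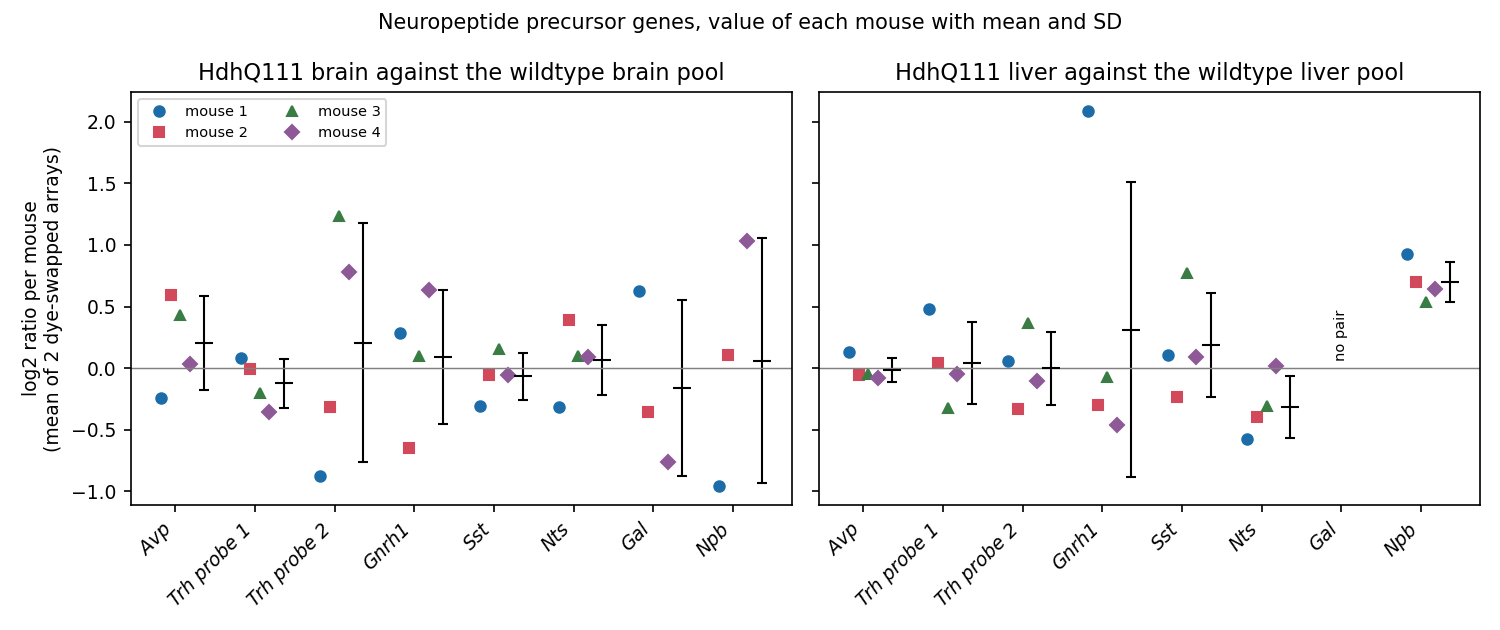
Log2 ratio of each HdhQ111 mouse (coloured points) against the wildtype pool for the 8 probes in brain (left) and liver (right), with the mean and SD over mice in black. In brain every gene has mice on both sides of 0, and in liver the 4 Npb values lie between 0.54 and 0.93.

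Somatostatin gave the tightest brain values. Sst was at -0.31, -0.06, 0.16 and -0.05 in mice 1 to 4, with a mean of -0.07 ± 0.19 (SD, n = 4). Mouse 3 was the 1 mouse above 0. Its SD stood at percentile 20.3 of all probes, and its arrays differed little by dye, with a mean of -0.02 over the Cy5 and -0.11 over the Cy3 arrays. The 95% confidence interval of the mean, -0.39 to 0.26, corresponds to 0.764 to 1.19 times the pool.

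Neurotensin was close to the pool too. Nts was at -0.31, 0.39, 0.10 and 0.09 in mice 1 to 4, with a mean of 0.07 ± 0.29 and an interval of 0.801 to 1.37 times the pool. Mouse 1 alone was below 0. The mean was 0.09 over the Cy5 and 0.04 over the Cy3 arrays, a dye difference at percentile 6.62 of all probes.

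Vasopressin varied more between mice. Avp was at -0.25, 0.59, 0.43 and 0.03, with a mean of 0.20 ± 0.38 (n = 4) and an interval of 0.839 to 1.58 times the pool. Mice 2 and 3 were high and mouse 1 was below 0, so the mean is smaller than the SD. The Cy5 array of mouse 2, at 1.48, was the largest single value, while its Cy3 array gave -0.29. On the Cy3 arrays alone the mean was -0.010.

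The 2 probes of Trh disagreed. The first was at 0.08, -0.01, -0.21 and -0.36 in mice 1 to 4 (mean -0.12 ± 0.20), and the second at -0.88, -0.31, 1.23 and 0.78 (mean 0.21 ± 0.97). Mice 3 and 4 were the lowest on the first probe and the highest on the second. The first probe had a large dye effect: the 4 arrays with mutant RNA in Cy5 were all below 0, from -1.62 to -0.49, and the 4 with it in Cy3 all above, from 0.07 to 0.90. Such a split by dye was found in 9.83% of the 16607 probes with 8 brain values and in 1 of the 6 member probes with 8. The SD of the second probe stood at percentile 91.3, and its interval was 0.583 to 2.28 times the pool.

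**Figure D2:**
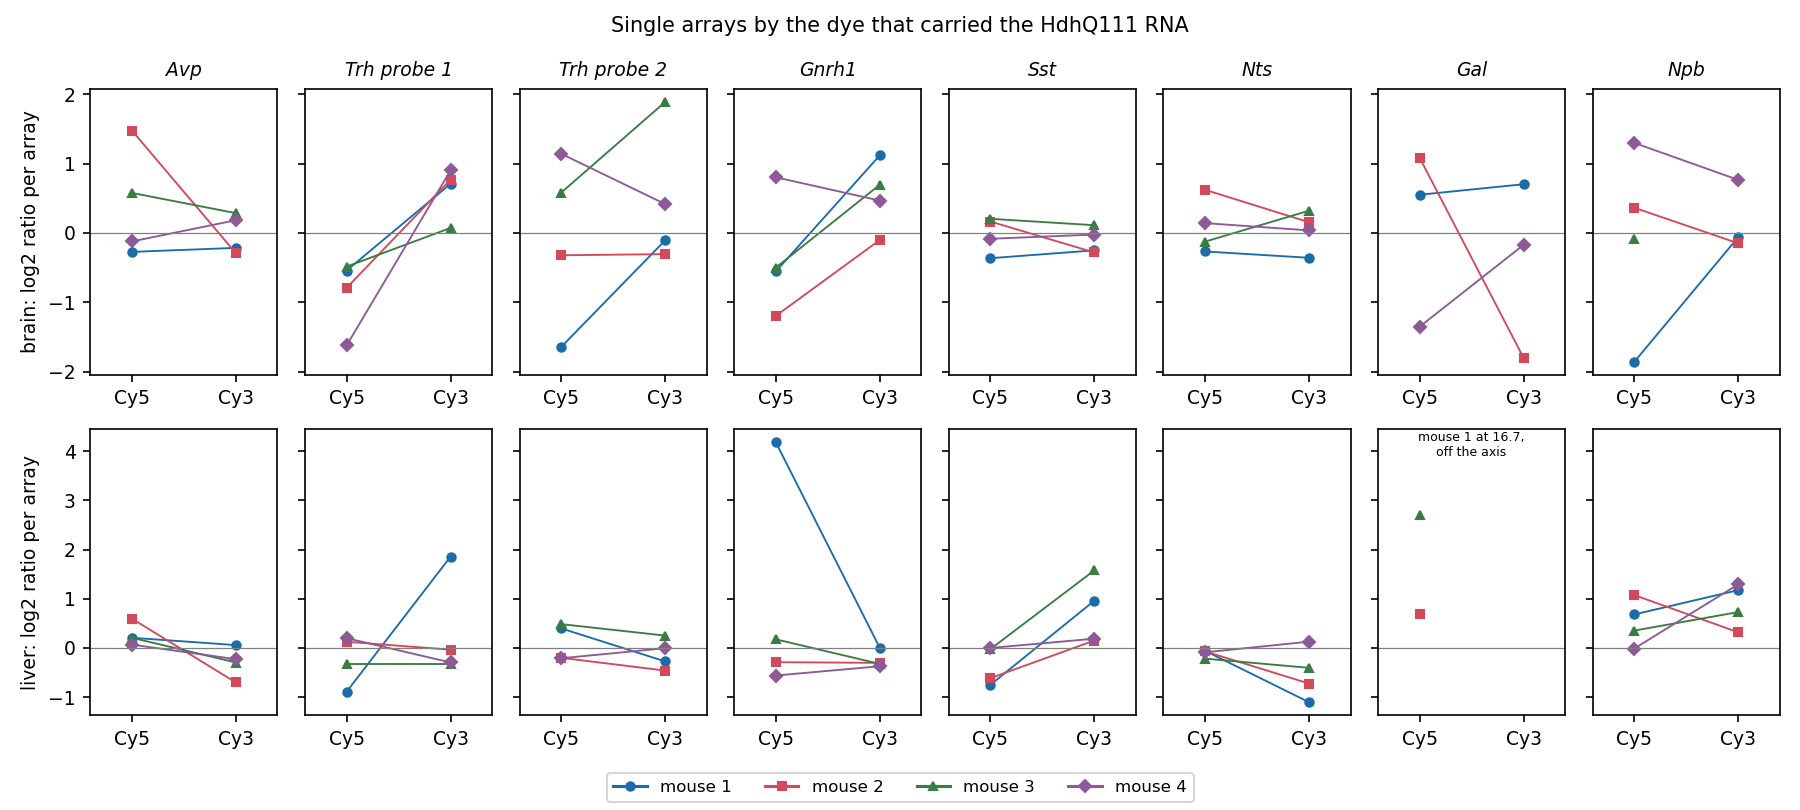
Log2 ratio on each array by the dye that carried the HdhQ111 RNA (Cy5 left, Cy3 right in each panel), with a line joining the pair of a mouse, in brain (top) and liver (bottom). The first Trh probe in brain and Sst in liver lie below 0 on the Cy5 arrays and above 0 on the Cy3 arrays, and Gal in liver has 3 values on Cy5 arrays and none on Cy3 arrays, with mouse 1 at 16.7 off the axis.

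Gonadotropin-releasing hormone, which few scattered neurons make, had a wide range. Gnrh1 was at 0.28, -0.65, 0.10 and 0.63 in mice 1 to 4, with a mean of 0.09 ± 0.54 and an interval of 0.707 to 1.6 times the pool. Mouse 2 was the 1 mouse below 0. On the Cy5 arrays alone the mean was -0.363 and on the Cy3 arrays 0.544.

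Galanin and neuropeptide B each lacked a complete pair in mouse 3 and so were measured in 3 mice in brain, as were 13.1% of all probes. Gal was at 0.63, -0.36 and -0.76 in mice 1, 2 and 4 (mean -0.17 ± 0.72). Its arrays of mouse 2 differed by dye, with 1.08 on Cy5 and -1.80 on Cy3. Npb was at -0.96, 0.11 and 1.03 in mice 1, 2 and 4 (mean 0.06 ± 0.997), and the 2 arrays of mouse 1 gave -1.86 and -0.06. The limma intervals were 0.488 to 1.63 times the pool for Gal and 0.466 to 2.33 times for Npb, the widest of the members.

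Mouse 1 was the lowest mouse in 4 of the 6 member probes with 4 brain values, Avp, the second Trh probe, Sst and Nts. It was the lowest in 42.8% of all 16607 such probes, and its 2 brain arrays had a mean array median of -0.096, against 0.003, 0.124 and 0.025 for mice 2 to 4. With each array centred on its median, mouse 1 was the lowest in 4 of the 6 member probes and in 30.0% of all probes. Centring brought the Sst values to between -0.21 and 0.03 (mean -0.08 ± 0.10) and turned no brain mean of a member.

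Hormones made in the pituitary itself had far lower ratios in the same brain samples. Of 6 measured genes of the pituitary list (20 listed), Gh (growth hormone) was at -4.35 ± 1.38 (n = 4), Prl (prolactin) at -4.28 ± 0.27 (n = 3), Pomc (the corticotropin precursor) at -2.75 ± 0.52 (n = 4) and Cga (the common glycoprotein hormone subunit) at -1.62 ± 0.49 (n = 4). None passed limma over all genes (0.00% of 8621), where the smallest adjusted p was 0.0549, for Prl. Tshb was at -0.22 ± 0.17 and Gata2, a transcription factor also used elsewhere, at 0.54 ± 0.56 (n = 3). Galanin is made in the pituitary as well as in neurons. Its 3 values spanned 0, with an interval of -1.03 to 0.70. That interval lay just above the interval of Cga (-2.14 to -1.09) and did not overlap those of Gh, Prl and Pomc. The Gal interval comes from the fit over probes and the others from a separate fit with probes of a gene averaged. So the small gap to Cga carries no weight. The Gal interval overlapped the intervals of Tshb (-0.51 to 0.08) and Gata2 (-0.14 to 1.22). The difference between Gal and these genes was not tested. The part of pituitary tissue in the neuropeptide values was not tested.

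**Figure D3:**
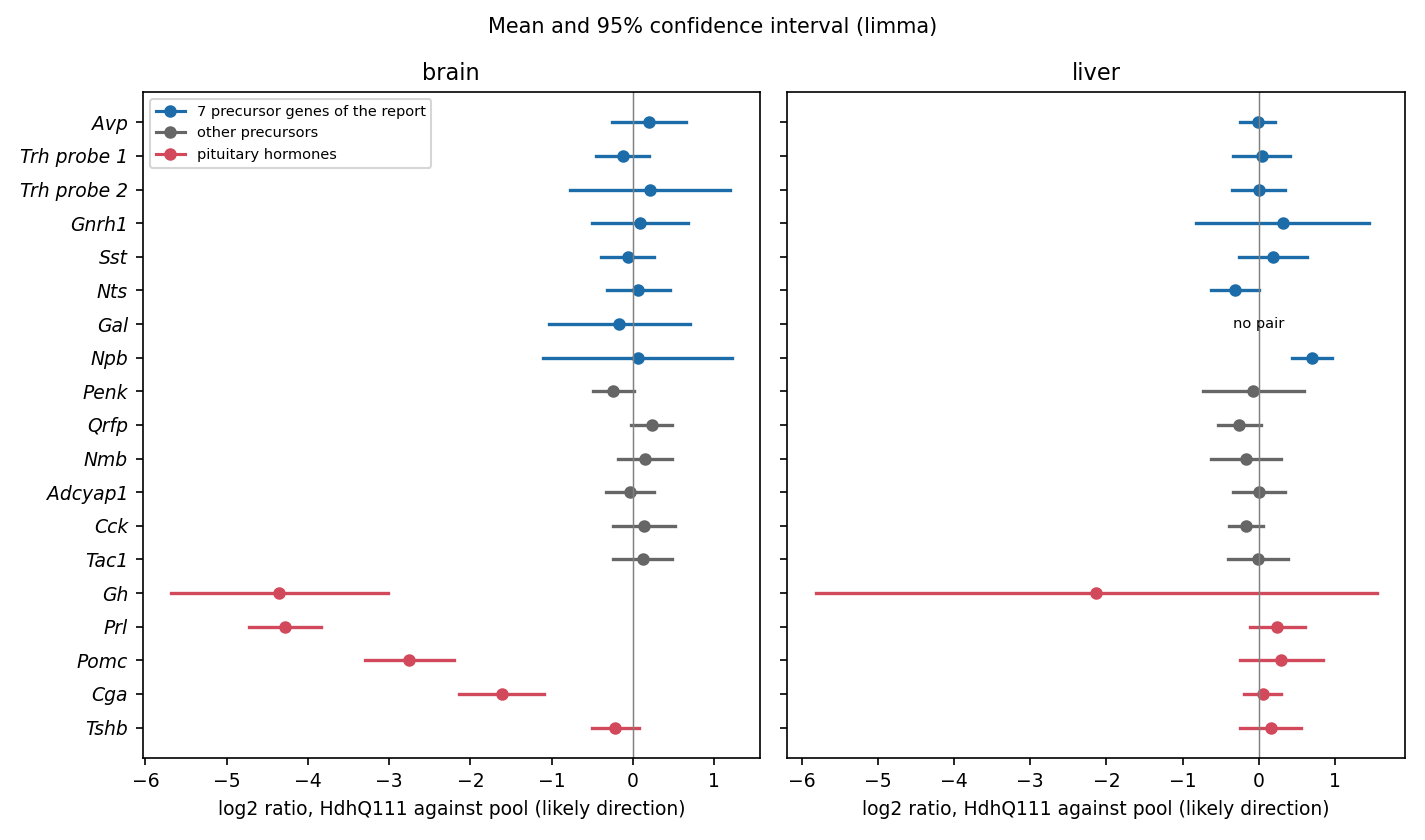
Mean log2 ratio with the limma 95% confidence interval for the 7 genes (8 probes, blue), other neuropeptide precursors (grey) and pituitary hormones (red), in brain and liver. In brain the blue and grey intervals all include 0, while those of Gh, Prl, Pomc and Cga lie below -1. Blue intervals come from the fit over probes, grey and red ones from the fit with probes of a gene averaged.

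Other neuropeptide precursors had brain means from -0.24 to 0.23. Of 48 listed, 8 had a probe and 7 were tested in brain, with 5 above and 2 below 0 (56.9% of genes were above), a median of 0.121 (0.024 over all 8621 genes) and 0 past limma's test, adjusted or unadjusted (unadjusted p under 0.05 in 3.12% of genes). Penk (enkephalin, abundant in striatum) had values of -0.33, -0.20, -0.23 and -0.20 in mice 1 to 4, lower in 4 of 4 mice (mean -0.24 ± 0.06, adjusted p = 0.999 by limma). Qrfp, a hypothalamic RF-amide precursor, was at 0.26, 0.28, 0.24 and 0.13, higher in 4 of 4 (mean 0.23 ± 0.06, adjusted p = 0.999). In brain all 4 mice were above 0 in 6.02% and below 0 in 4.71% of probes. Cck (cholecystokinin) was at 0.13 ± 0.31, Tac1 (substance P) at 0.12 ± 0.28, Nmb (neuromedin B) at 0.15 ± 0.24 and Adcyap1 (PACAP) at -0.04 ± 0.17. Npy, which is co-expressed with Sst in many interneurons, had a value in 1 mouse (1.18, mouse 4). In liver 0 of 7 tested were above and 7 below 0 (median -0.07, -0.03 over all genes, of which 43.2% were above), again with 0 unadjusted calls. Qrfp was below 0 in 4 of 4 livers (-0.26 ± 0.22, with mouse 3 at -0.003) and Cck too (-0.17 ± 0.13). So were 13.0% of the probes with 4 liver values. Liver minus brain was above 0 in 2 and below in 5 (42.2% of genes were above). Of these 7, 1 had an unadjusted p under 0.05 by limma and was lower (4.55% of genes). The SDs of these other precursors had a median percentile of 14.8 in brain and 51.4 in liver. Those of the member probes had 67.3 in brain (8 probes) and 59.4 in liver (7 probes). These differences were not tested.

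Receptors of these peptides were mostly unmeasured: 4 of 18 listed genes had a probe. Sstr3, a somatostatin receptor of neuronal cilia, was at 0.93, 0.18, 0.06 and 0.20 in brain (mean 0.35 ± 0.40), higher in 4 of 4 mice but with mouse 1 far above the rest. The neurotensin receptors Ntsr1 and Ntsr2 were at -0.08 ± 0.30 and 0.05 ± 0.30, and Sort1 (sortilin, which also binds neurotensin) at -0.11 ± 0.20. Of these 4, 0 had an unadjusted p under 0.05 in brain (3.12% of genes) or liver (7.60%), and 0 an adjusted p under 0.05. In liver Ntsr1 was at -0.16 ± 0.16 and below 0 in 4 of 4 mice (13.0% of probes). The list of receptors of other neuropeptides also holds some accessory proteins, such as Ramp2. Of its 50 genes 9 were tested in brain, 6 above and 3 below 0. Among them were Ramp2 at 0.16 ± 0.24, Tacr1 at 0.14 ± 0.20, Cckbr at -0.26 ± 0.42 and Crhr1 (a corticotropin-releasing hormone receptor) at -0.12 ± 0.20. In liver 3 of 10 were above and 7 below 0, and 1 had an unadjusted p under 0.05: Crhr1 was at -0.25 ± 0.09, below 0 in 4 of 4 mice (unadjusted p = 0.0266, adjusted p = 0.598 by limma).

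Proteins that make and store peptides had brain means from -0.19 to 0.23. Of 33 listed processing and granule genes, 21 were tested in brain, 13 above and 8 below 0 (56.9% of genes were above). Their median was 0.033, and 0 had an unadjusted p under 0.05 (3.12% of genes). Cpe (carboxypeptidase E, which trims basic residues) was at 0.00 ± 0.22 and Pam (the amidating enzyme needed for vasopressin, TRH, GnRH and galanin) at -0.09 ± 0.20. Syt4 and Cadps, which act in granule release, were at 0.23 ± 0.23 and 0.16 ± 0.13, Ica1 at -0.19 ± 0.11 and the granin Chgb at -0.15 ± 0.33. In liver this list ran from -2.36 to 0.957, with 11 genes above and 11 below 0 (43.2% of genes were above). An unadjusted p under 0.05 was found in 1 higher gene (2.64% of all genes) and 1 lower gene (4.96%). Chgb was the higher, at 0.37 ± 0.29 and above 0 in 4 of 4 mice (unadjusted p = 0.0359, adjusted p = 0.598 by limma). All 4 mice were above 0 in 7.56% of the probes with 4 liver values.

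Among peptide-degrading enzymes Nln stood lowest. Nln (neurolysin, a metallopeptidase that cuts neurotensin) was at -0.99, -0.79 and -0.93 in the brains of mice 1, 3 and 4 (mean -0.90 ± 0.10, lower in 3 of 3 mice, unadjusted p = 0.00169, adjusted p = 0.999 by limma over genes). In liver it was at 0.23, 0.06 and 0.35 in mice 2 to 4 (mean 0.21 ± 0.14). The liver-minus-brain difference was 1.11 (unadjusted p = 3.1e-04, adjusted p = 0.445, where 1 of 8543 genes, 0.0117%, passed). By dye, the brain value was -1.32 on Cy5 and -0.254 on Cy3 arrays, the liver value 0.728 and -0.304, and the difference between tissues 2.048 and -0.051. The brain and liver means come from partly different mice, and where 1 array was enough for a mouse the brain value was -0.568.

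The degrading enzymes as a list lay on both sides. Of 13 tested in brain, 6 were above and 7 below 0 (median -0.04), and 2 had an unadjusted p under 0.05, both lower (1.57% of all genes). The other was Dpp3 (a cytosolic dipeptidyl peptidase that cleaves enkephalins and angiotensins) at -0.47 ± 0.38, whose mean was -2.187 on Cy5 and 1.250 on Cy3 arrays. Trhde, the membrane enzyme that inactivates TRH, was above 0 in 4 of 4 mice in brain (0.22 ± 0.19) and in liver (0.20 ± 0.27). All 4 mice were above 0 in 6.02% of probes in brain and 7.56% in liver. In liver, mouse 1 was at 0.59 and mice 2 to 4 at 0.09, 0.03 and 0.09. In brain, mouse 3 was at 0.02. Pgpep1, which also cuts TRH, was at -0.18 ± 0.45 in brain and Thop1, a close relative of Nln, at 0.08 ± 0.36. Of the broad peptidases, Mme (neprilysin) was at 0.15 ± 0.56, Ace at -0.11 ± 0.12, Ide at 0.02 ± 0.28 and Mmel1 at -0.04 ± 0.17 (n = 3). Prepl, also counted in the list but not a broad peptidase, was at -0.07 ± 0.15. Ece1 (0.49 ± 1.14), Dpp4 (0.475 ± 1.61, n = 3) and Npepps (-0.61 ± 1.67) each had 1 mouse far from the others (mouse 3 at 2.17, mouse 1 at 2.32 and mouse 3 at -2.99). Ece2 had no brain value.

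**Figure D4:**
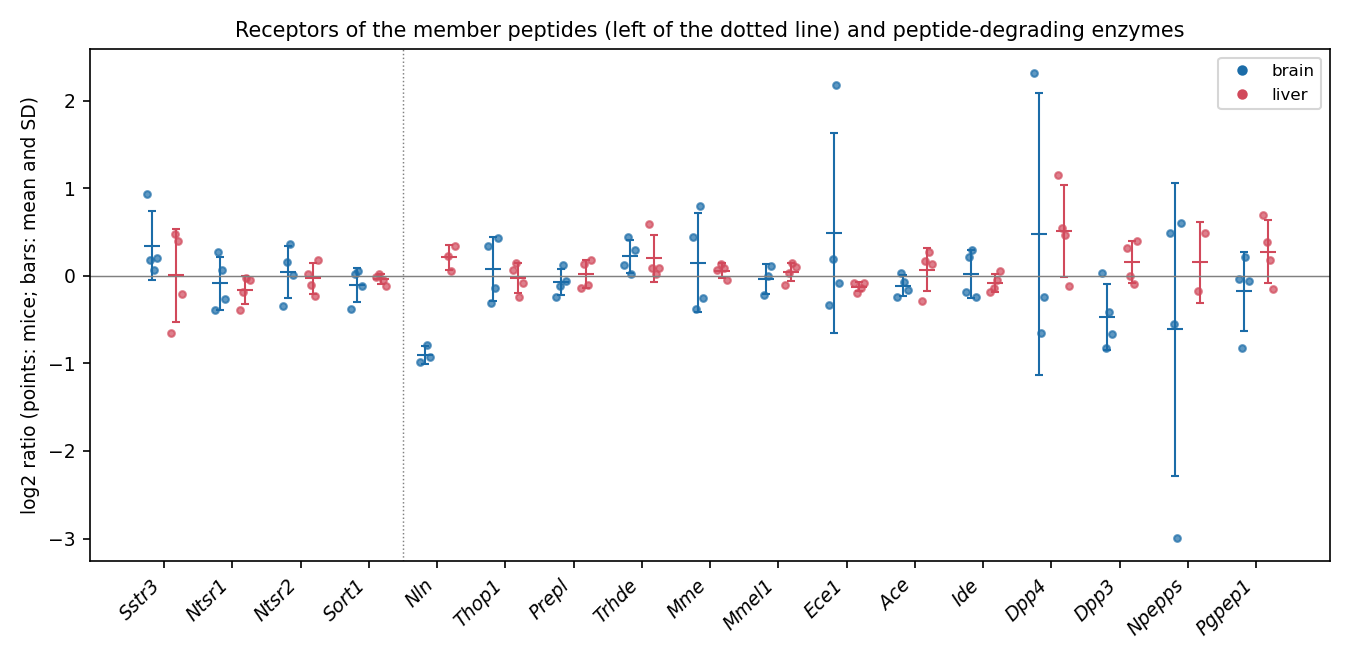
Log2 ratio of each mouse (points) with mean and SD (bars) for measured receptors of the 7 peptides and for peptide-degrading enzymes, in brain (blue) and liver (red); Ece2, with 1 liver mouse, is not drawn. Nln lies between -0.99 and -0.79 in brain and above 0 in liver, and most other genes span 0.

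Markers of GABA neurons, including Sst interneurons, and of the hypothalamus lay on both sides of 0. They were not limited to cells that make the member peptides. Of 12 measured GABA neuron and Sst interneuron markers (27 listed), 11 were tested in brain, 4 above and 7 below 0 (median -0.03). Of all genes, 56.9% were above 0. Pvalb was at 0.12 ± 0.28, Calb2 at 0.21 ± 0.27 and the GABA-synthesising enzyme Gad2 at -0.06 ± 0.21. Npas1, a transcription factor of interneurons and pallidal neurons, was below 0 in 4 of 4 mice (-0.44 ± 0.31, unadjusted p = 0.0308, adjusted p = 0.999 by limma). Its mouse 1 was at -0.018. All 4 mice were below 0 in 4.71% of probes. Npas1 was the 1 gene of this list with an unadjusted p under 0.05 in brain, where 1.57% of all genes were lower at that level. Hypothalamus markers had 5 above and 5 below 0 of 10 tested (28 listed, median 0.027), with Arnt2 at 0.23 ± 0.28, Esr1 at 0.06 ± 0.16, Dlk1 at -0.30 ± 0.31 and Nr5a1, the mean of 3 probes, at -0.27 ± 0.58.

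Liver, which is not known as a main source of these peptides, served as the contrast. With limma 0 of 7 member probes passed (0.00% of 20127 probes). Unadjusted p was under 0.05 in 1 probe that was higher, Npb (2.88% of all probes), and in 1 that was lower, Nts (4.12%). The means were above 0 in 4 and below 0 in 3 (46.4% of all probes were above). The liver median of the member probes was 0.038 and that of all probes -0.018.

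Npb had the highest liver mean of the members. It was at 0.93, 0.70, 0.54 and 0.64 in mice 1 to 4, higher in 4 of 4, with a mean of 0.70 ± 0.16 and a 95% interval of 1.36 to 1.95 times the pool. All 4 mice were above 0 in 7.56% of the 18286 probes with 4 liver values. The Cy5 arrays gave 0.68, 1.07, 0.35 and -0.01 and the Cy3 arrays 1.17, 0.32, 0.73 and 1.29, so 7 of 8 arrays were above 0. Its unadjusted p of 7.7e-04 was the second smallest of 20127 probes, yet the adjusted p was 0.636. The adjusted p ranged from 0.608 to 0.773 when mice were left out in turn or the scaling, the missing values or the variance model were changed, and was 0.468 on Cy5 and 0.182 on Cy3 arrays alone. With a variance trend and robust estimation the unadjusted p was 0.0645, no longer under 0.05, and 0 of all probes were then higher at that level. With the names as given, without the shift, the row called Npb was at -0.165.

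Nts was lower in 3 of 4 livers. It was at -0.58, -0.40, -0.31 and 0.02 in mice 1 to 4, with a mean of -0.32 ± 0.25, an interval of 0.645 to 0.998 times the pool and an unadjusted p of 0.0484 (adjusted p = 0.636 by limma). Mice 1 to 3 were below 0 and mouse 4 was just above. Its unadjusted p was 0.0683 with the variance trend and 0.0519 with arrays centred. On Cy5 arrays the mean was -0.109 and on Cy3 arrays -0.526.

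The remaining members gave no liver difference beyond their spread. Avp was at 0.13, -0.06, -0.05 and -0.08 (mean -0.01 ± 0.10), the least variable member, with an interval of 0.846 to 1.16 times the pool. The Trh probes averaged 0.04 ± 0.33 and -0.00 ± 0.29. Sst was at 0.11, -0.23, 0.78 and 0.09 (mean 0.19 ± 0.42), and as with the first Trh probe in brain its 4 Cy5 arrays lay below 0 and its 4 Cy3 arrays above. Such a split was found in 10.4% of probes. Gnrh1 was at 2.09, -0.30, -0.08 and -0.47 (mean 0.31 ± 1.20). Its mean rested on the Cy5 array of mouse 1, at 4.18, whose Cy3 partner was at 0.003, and without mouse 1 the mean was -0.280.

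Gal had no liver value. Of its 8 arrays 3 had a number, all with mutant RNA in Cy5 (16.7, 0.69 and 2.69 for mice 1 to 3), and no mouse had both orientations. The 16.7 belongs to a group of 1496 values of 16.492 to 16.987 in size across all arrays, far beyond the next largest size of 8.297. No complete pair in any mouse was the case for 0.418% of all probes in liver.

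The tissues were then compared by the liver mean minus the brain mean, fitted over all mouse values of each tissue. With limma 0 of 7 member probes passed (0.00525% of 19055 probes) and 0 had an unadjusted p under 0.05 (6.47% of all probes). Npb had the widest difference, 0.64 ± 0.43 (SE), from 4 livers and 3 brains, and its interval was -0.35 to 1.64. Within mice it was 1.89 in mouse 1, 0.59 in mouse 2 and -0.39 in mouse 4, and 0.695 with the mouse as a block. Without mouse 1 the difference was 0.056 (adjusted p = 0.963 by limma) and without mouse 4 it was 1.148 (unadjusted p = 0.025, adjusted p = 0.792). Nts was lower in liver than in brain in 4 of 4 mice, by 0.27, 0.79, 0.41 and 0.07. The difference was -0.38 ± 0.20 (SE, interval -0.84 to 0.07, adjusted p = 0.739 by limma). How many of all probes were lower in 4 of 4 mice was not counted. The mean difference was above 0 in 44.9% of all probes. The differences of the other 5 probes lay between -0.21 and 0.25 with intervals that include 0. The higher Npb ratio in liver is thus not shown to differ from brain.

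The genes whose pattern over the 8 mouse values (4 brain, 4 liver) was most like each member's were named among 7502 genes, as a description only. They were Cxxc1 (Pearson r 0.978) for Avp, Bsn (0.973) for the first Trh probe and Dbi (0.969) for the second, Zfp473 (0.962) for Gnrh1, Impdh1 (0.959) for Sst and Nif3l1 (0.975) for Nts. Next were Spata21 (0.967), Mical1 (0.920), Dynlrb1 (0.964), Mtg2 (0.960), Klhl18 (0.927) and Nsmf (0.974) in the same order. No other member and no gene of the peptide lists was among them and the points share arrays and the pool. Gal and Npb lacked some of the 8 values.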

How the data were processed

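Total RNA was labelled with Cy3 or Cy5 and hybridised to 2-colour cDNA arrays, per the labels' protocols. The authors deposited log2 ratios (base 2 assumed, since no header states it) for 20794 probes on 16 arrays, with 19530 to 20584 values each and array medians of -0.128 to 0.246. Scanner, background correction, normalization and filters are not given in the sources used here, and without intensities the number of arrays limits the precision. Scale, centring and sign stay unknown in part. Dye differences of brain and liver correlated over probes (Spearman's rho 0.387) and pair means did not (-0.0103), so pair means were taken as the genotype ratio. Between mice within a dye orientation, Pearson's r was at least 0.087.

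The platform table gave 12771 probes 1 symbol, 0 several and 8023 none. Low scatter of housekeeping probes also scored best at the shift of 11 rows (0.174, 0.003 as given, at most 0.055 elsewhere, 238 probes).

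A probe needed 3 mice with both arrays. Means over mice were set against 0 by limma (version 3.58.1, lmFit and eBayes, two-sided, R version 4.3.3), fitted to all probes at once, and p-values were Benjamini-Hochberg adjusted, with a threshold of 0.05. The pool is 1 control sample, so wildtype spread is left out. For gene lists, probes of a gene were averaged. Liver minus brain was fitted over 8 mouse values. A paired fit with the mouse as a replicate block rests on the labels, which give both tissues to the same mice. Deviations of a mouse correlated between tissues by rho 0.053, -0.013, 0.083 and 0.020. Named were all members, measured receptors of their peptides, degrading enzymes, and Npy, Penk, Cck, Tac1, Cpe and Pam. Of each other list the 2 genes with the smallest brain p in each direction were picked. The picks of the neuron and hepatocyte marker lists are not given in the text, except Syt1. They still count among the named genes in the counts below. Gh, Cga and Tshb were named after their values were seen. Members and lists were chosen with earlier results of these data known.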

Additional observations from a re-analysis of the deposited data

Results flagged for a closer look

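Of 122 groups of 4 mice behind the named genes, 13 held 1 mouse apart from the rest by Dixon's criterion for 4 values. The nominal rate of that criterion is about 1 of 20 groups. The rate over all probes was not measured, and some of the named genes were picked by their p. An excess over chance is thus not shown. Among the members the groups with 1 mouse apart were Gnrh1 in liver, with mouse 1 at 2.09, and Avp in liver, with mouse 1 at 0.13 in a narrow range. In liver the others were Trhde in mouse 1 (0.59), Cckbr in mouse 1 (0.27), Gh in mouse 1 (-7.96), Pomc in mouse 2 (1.10), Tshb in mouse 2 (0.71), Gata2 in mouse 2 (-0.57) and Syt1 in mouse 2 (0.525). In brain they were Sstr3 in mouse 1 (0.93), Chgb in mouse 1 (-0.635), Tacr1 in mouse 4 (-0.15) and Gh in mouse 2 (-2.29). Whether the liver value of -7.96 for Gh holds 1 of the 1496 values of 16.492 to 16.987 in size was not tested.

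Prl differed between tissues by limma, with a liver-minus-brain difference of 4.52 (adjusted p = 8.5e-04 with probes of a gene averaged). No member did.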

How the results depend on the processing

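Over 268 alternatives for the member probes, 0 had an adjusted p under 0.05, and the smallest was 0.182, for Npb in liver on Cy3 arrays. Signs turned in 44 of them. Npb in liver kept its sign except with the names as given. On Cy5 arrays only, the means were -0.062 for the second Trh probe, -0.363 for Gnrh1, 0.093 for Gal and -0.073 for Npb in brain, 0.268 for Avp, -0.223 and 0.117 for the Trh probes and -0.347 for Sst in liver, and 0.179 (second Trh probe) and -0.327 (Sst) for liver minus brain. On Cy3 arrays only, they were -0.010 for Avp and 0.612 for the first Trh probe in brain, -0.250 for Gnrh1 in liver, and -0.313 (first Trh probe) and -0.793 (Gnrh1) for liver minus brain. A single orientation holds each probe's dye bias. With arrays centred, Avp was at 0.002 and the second Trh probe at 0.011 in liver. With the names as given, values were -0.158 (second Trh probe) and -0.030 (Gnrh1) in brain; 0.034 (Avp), -0.081 (first Trh probe), -0.282 (Gnrh1), 0.159 (Nts) and -0.165 (Npb) in liver; and -0.032 (first Trh probe), -0.252 (Gnrh1), 0.135 (Nts) and -0.209 (Npb) for liver minus brain.

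With 1 mouse left out in turn, brain means ranged from 0.072 to 0.350 (Avp), -0.194 to -0.046 (first Trh probe), -0.138 to 0.566 (second Trh probe), -0.091 to 0.337 (Gnrh1), -0.141 to 0.015 (Sst), -0.043 to 0.191 (Nts), -0.561 to 0.133 (Gal) and -0.427 to 0.569 (Npb). Liver means ranged from -0.061 to 0.010 (Avp), -0.110 to 0.159 and -0.126 to 0.106 (Trh probes), -0.280 to 0.573 (Gnrh1), -0.011 to 0.325 (Sst), -0.430 to -0.230 (Nts) and 0.625 to 0.754 (Npb). Liver minus brain ranged from -0.411 to -0.070 (Avp), 0.084 to 0.256 and -0.590 to 0.018 (Trh probes), -0.306 to 0.664 (Gnrh1), 0.129 to 0.393 (Sst), -0.487 to -0.249 (Nts) and 0.056 to 1.148 (Npb).

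Over all probes, limma's 0 calls in brain became 2 on Cy5 arrays and 1 where 1 array was enough. In liver, leaving out a mouse gave 0 to 2, with 2 without mouse 1. The 1 call in liver minus brain became 2 without floor ratios, 0 with all 4 mice needed and 0 with a variance trend (where unadjusted calls were 0 in brain, and 0 higher and 152 lower in liver), and leaving out a mouse gave 0 to 7 (7 without mouse 1, 5 without mouse 2, 0 without mouse 3 and 2 without mouse 4). With the mouse as a replicate block the call count stayed at 1, the Npb difference was 0.695 (adjusted p = 0.768) and that of Nts -0.383 (0.762), and the block changed no other call for a member. The causes were not tested. For the other named genes, 116 of 1955 alternatives moved a value by more than the SD over mice, and 207 turned a sign.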

Other observations

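Genes beside each member on its chromosome were looked up by order in the RefSeq table (GRCm38.p6), up to 3 protein-coding genes to each side, after the member values had been seen. Of 21 such neighbours tested in each tissue, 1 in brain and 2 in liver had an unadjusted p under 0.05 (3.12% and 7.60% of all genes), and 0 an adjusted one by limma. In brain it was 4930430F08Rik near Nts, at -0.49 ± 0.265 and below 0 in 4 of 4 mice (unadjusted p = 0.0154). In liver they were Bcl6 near Sst, a transcriptional repressor, at -0.475 ± 0.45 and below 0 in 4 of 4 mice (unadjusted p = 0.0472), and Sirt7. The gene 2 places beyond Npb is Sirt7, a nuclear deacetylase, which in liver was at 0.53, 0.21, 0.19 and 0.145 in mice 1 to 4, higher in 4 of 4 (mean 0.27 ± 0.175, unadjusted p = 0.0399, adjusted p = 0.598 by limma). Pcyt2, between them, was at -0.18 ± 0.21, Anapc11, on the other side of Npb, at -0.09 ± 0.44, and Mafg, beyond Sirt7, at -0.07 ± 0.22. In brain Sirt7 was at 0.03 ± 0.24.

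Of 8 pancreas and gut markers tested in each tissue, 5 were above and 3 below 0 in brain and likewise in liver. An unadjusted p under 0.05 was found in 1 in brain (3.12% of genes) and 1 in liver (7.60%). Clps was at 0.15 ± 0.305 and Cela3b at -0.33 ± 0.64 in brain. Gip, a gut incretin precursor, was at -1.20, -0.21, -0.89 and -0.85 in the 4 brains, lower in 4 of 4 (mean -0.79 ± 0.41, unadjusted p = 0.00662, adjusted p = 0.999 by limma), and below 0 on average in both dye orientations (-0.444 on Cy5 and -1.135 on Cy3 arrays). Gcg, the glucagon precursor, was at -0.03, 1.99, 0.76 and 1.05 in the 4 livers (mean 0.94 ± 0.83, unadjusted p = 0.0301, adjusted p = 0.598 by limma). Its brain values scattered widely, at 8.01, -0.65 and 1.08 in mice 1, 3 and 4 (mean 2.81 ± 4.58, n = 3). The mean rested on mouse 1. Whether its 8.01 holds 1 of the 1496 values of 16.492 to 16.987 in size was not tested.

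Ntsr1 lies in the row after Nts, and Nln lies 2 rows after the second Trh probe, whose intervening row, Tmem108, was at 0.25 ± 0.47 in brain.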
